A study of Mus musculus with 8 samples.

Results

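The 9 genes described here build melanosomes, the pigment organelles of melanocytes, or carry them through the cell: Rab27a, Mlph, Myo5a, Mreg, Rab38, Rab32, Bloc1s6, Hps4 and Ap3b1. A region of accessible chromatin was assigned to one of them when its centre lay inside the gene in GRCm38, or within 50 kb with that gene's end as the nearest end of any protein-coding gene. This gave 96 of the 148664 regions in the count table, 66 inside a gene and 30 outside. The assignment of regions to genes used positions only. The data are ATAC-seq libraries of 50000 cells each: the transposase Tn5 cuts DNA that is free of nucleosomes and tags the pieces for sequencing, so counts report accessibility. The cells were 4 mouse melanoma lines, raised as pools from lymph node suspensions of mice in which cutaneous melanoma began at 25 to 30 weeks, and the labels also call each line a clone. Lines 112 and 113 carry the STAT3 knockout (Stat3∆), and lines 119 and 73 are the controls, labelled wild type and, in the growth protocol, Stat3fl (a floxed Stat3 allele). Each line has 2 libraries, labelled biological replicates. Whether those came from separate cultures is not stated, so the spread between them may be partly technical and p-values between lines measure that spread only. The titles carry a p number (p18, p44, p14 and p68 for lines 112, 113, 119 and 73), which is not explained. The Cre driver and any oncogenic allele are not given in the sources used here. The series asks about STAT3, C/EBP factors and the pigmentation genes controlled by MITF, the master transcription factor of the melanocyte lineage.

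Melanosomes mature from endosomes in steps. The adaptor complex AP-3 (with the subunit Ap3b1), BLOC-1 (with Bloc1s6, also called pallidin) and BLOC-3 (with Hps4) sort pigment enzymes and their transporters into the young organelle. The small GTPases Rab32 and Rab38 direct the cargo carriers, and BLOC-3 is their exchange factor. Mature melanosomes then move along microtubules and are captured at the cell edge by a complex of Rab27a on the organelle, its effector melanophilin (Mlph) and the actin motor myosin Va (Myo5a). Melanoregulin (Mreg) takes part in melanosome distribution and transfer. In mice, loss of Rab27a, Mlph, Myo5a, Bloc1s6, Hps4 or Ap3b1 lightens the coat and loss of Rab38 turns a black coat brown, whereas Mreg is the dilute suppressor gene, whose loss partly restores the coat colour of mice that lack myosin Va. In people, Rab27a, Myo5a and Mlph are the genes of Griscelli syndrome, and Bloc1s6, Hps4 and Ap3b1 are genes of Hermansky-Pudlak syndrome.

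The promoter windows of 3 genes with an annotated start at which a region was higher in both knockout lines than in both wild-type lines are shown first. They are RefSeq windows (GRCm38.p6) from 250 bases before to 50 bases after a start site, printed 5′ to 3′ on the gene's strand. Capitals mark CACGTG, the palindromic E-box that MITF and many other basic helix-loop-helix factors bind. Rab27a has annotated starts 19338 bp apart, and both windows are given because their regions behaved differently. The outer window is chr9:73044560-73044859 (plus strand) and the inner window is chr9:73063898-73064197 (plus strand). The Mlph window is chr1:90914850-90915149 (plus strand) and the Mreg window is chr1:72212265-72212564 (minus strand).
Rab27a outer start: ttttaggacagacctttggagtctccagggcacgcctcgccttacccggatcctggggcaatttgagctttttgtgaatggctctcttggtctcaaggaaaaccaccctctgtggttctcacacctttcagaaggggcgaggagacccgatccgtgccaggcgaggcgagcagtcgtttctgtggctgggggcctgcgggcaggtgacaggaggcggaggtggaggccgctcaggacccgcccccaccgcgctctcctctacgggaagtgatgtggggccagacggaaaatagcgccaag
Rab27a inner start: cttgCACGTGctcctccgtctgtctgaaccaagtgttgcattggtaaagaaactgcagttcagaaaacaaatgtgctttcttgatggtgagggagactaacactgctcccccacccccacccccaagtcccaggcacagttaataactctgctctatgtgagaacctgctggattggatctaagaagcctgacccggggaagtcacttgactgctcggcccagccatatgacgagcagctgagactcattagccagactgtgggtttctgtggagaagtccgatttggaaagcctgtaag
Mlph start: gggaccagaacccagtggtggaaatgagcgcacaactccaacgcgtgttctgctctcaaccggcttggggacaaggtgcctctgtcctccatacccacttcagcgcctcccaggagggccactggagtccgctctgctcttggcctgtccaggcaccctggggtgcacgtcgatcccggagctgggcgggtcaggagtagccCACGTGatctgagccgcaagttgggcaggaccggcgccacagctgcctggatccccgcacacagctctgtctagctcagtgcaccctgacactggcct
Mreg start: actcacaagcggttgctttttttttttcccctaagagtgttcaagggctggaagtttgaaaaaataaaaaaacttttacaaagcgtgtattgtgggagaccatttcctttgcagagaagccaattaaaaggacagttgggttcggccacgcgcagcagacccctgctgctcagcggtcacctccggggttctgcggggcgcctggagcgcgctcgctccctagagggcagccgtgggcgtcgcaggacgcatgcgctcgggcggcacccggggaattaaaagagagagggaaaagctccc

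RefSeq windows were found for 7 of the 9 genes (9 windows), and Rab38 and Bloc1s6 had none in the table. The Mreg windows, chr1:72212258-72212557 and chr1:72212265-72212564, overlap almost fully and are counted separately. The E-box CACGTG was searched on both strands, together with the core of the M-box of pigmentation genes, CATGTG, a C/EBP core, TTGCNNAA, and a STAT site, TTCNNNGAA. CACGTG was in 2 of the 9 windows, against 7.15% of all 32817 promoter windows: in the inner Rab27a window at −246 to −241 bp from the start site, and in the Mlph window at −48 to −43 bp. The other motifs were in 0 of the 9 windows, against 14.2% of all windows for CATGTG, 10.8% for TTGCNNAA and 8.29% for TTCNNNGAA. A match describes letters only and is not evidence of binding. The inner Rab27a window held 6 CpG dinucleotides and 51.3% GC, while the other 8 windows held 10 to 48 CpG. The median over all windows was 7 CpG and 52.7% GC.

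Library totals ran from 2697546 to 7464336 counts and peak calls from 20387 to 94906, both lowest in line 112 replicate 2 and highest in line 119 replicate 1. Values are given as CPM (counts over the TMM-scaled library size, times 1000000). The share of counts in the 10% of regions with most counts was lower in lines 112 and 119 (37.1% to 43.0%) than in lines 113 and 73 (45.5% to 48.6%), a difference between libraries that does not follow genotype. The start region of Stat3, the targeted gene, was accessible in every library (25.9 to 38.5 CPM in knockout libraries, 18.2 to 38.9 CPM in wild-type libraries), which does not test the deletion. The strongest regions at the ends of 8 melanocyte markers summed to 140 to 256 CPM in knockout libraries and 79.5 to 127 CPM in wild-type libraries. Mitf and Pmel had peaks in all 8 libraries, whereas Sox10 was at 2.56 and 3.61 CPM in line 73 and Mlana was at 0 to 0.844 CPM in the wild-type libraries. Sox10, Mlana, Tyr, Tyrp1 and Dct were higher in every knockout than in every wild-type library, and Mitf, Pmel and Gpr143 overlapped. In knockout and wild-type libraries, Tyr was at 14.2 to 22.4 and 1.67 to 4.91 CPM. Tyrp1 was at 4.92 to 18.8 and 1.01 to 3.61 CPM, and Dct at 20.6 to 69.3 and 0.512 to 4.22 CPM. Of the markers of other cell types, 4 of 6 for lymph node and blood cells had a region (summed 19.7 to 25.6 CPM in knockout and 15.9 to 31.0 CPM in wild-type libraries), and Ptprc and Csf1r had none. All 4 fibroblast markers had one (34.8 to 47.0 and 37.9 to 93.5 CPM). Pdgfrb was at 3.17 to 6.05 CPM in knockout and 12.02 to 49.4 CPM in wild-type libraries, with 46.9 and 49.4 CPM in line 73. Pdgfra went the other way, at 8.31 to 19.3 CPM in knockout and 0.768 to 1.86 CPM in wild-type libraries. Col1a1 and Dcn overlapped between the genotypes. For endothelium 1 of 3 markers had a region (2.09 to 5.54 and 5.56 to 7.50 CPM, with Pecam1 and Cdh5 absent), and for keratinocytes 1 of 2 (0.906 to 6.46 and 0.338 to 4.35 CPM, with Krt5 absent). The part of these differences in the results below was not tested.

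Accessibility at the melanosome genes differed between the knockout and the wild-type lines at many single regions and in both directions. With the line as the unit of replication, no region passed an adjusted p of 0.05 (edgeR). Rab27a, Mlph and Rab38 had separated regions, as defined below, that were higher in both knockout lines and no separated region that was lower. Myo5a (4 against 1), Rab32 (2 against 1), Ap3b1 (2 against 1) and Bloc1s6 (1 against 0) had more lower than higher separated regions. Mreg and Hps4 had 1 of each. The start regions of Myo5a, Rab32, Bloc1s6, Hps4 and Ap3b1 had at least 13.03 CPM in every library. A region was called separated when all 4 comparisons of a knockout with a wild-type line passed an adjusted p of 0.05 in one direction (edgeR quasi-likelihood test, fit of the 8 libraries). Of the 93 regions with enough counts to test, 14 (15.1%) were separated and higher in the knockout lines, against 7.64% of all 140329 tested regions, and 11 (11.8%) were lower, against 7.41%. Together 25 of 93 (26.9%) were separated, against 15.1% of all regions. The 3 regions not tested belonged to Rab38 (2) and Ap3b1 (1). Log2 fold changes are given as knockout over wild type, and their median was 0.02 over the member regions and −0.09 over all tested regions. In bulk libraries, fewer cells with an open region and less opening per cell cannot be told apart.

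A separated call compares lines. When the line was the unit of replication (counts summed per line, 2 against 2, edgeR quasi-likelihood test), 0 of the 93 regions passed an adjusted p of 0.05, as did 0% of all tested regions. The smallest adjusted p was 0.143, for the members and for the whole table. At an unadjusted p under 0.05, 13 member regions were higher (background 8.27%) and 11 lower (background 8.64%). The DESeq2 Wald test on the same sums called 7 of the 93 regions, against 4.83% of all regions. With the 8 libraries as units, which are not independent units of genotype, edgeR called 34 (background 22.7%), and 25 with the replicate number as a block (background 17.3%). All fold changes below come from the edgeR test with lines as units, so their adjusted p values are those of a 2-against-2 design. Means carry the SD of the 2 line means.

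**Figure D1:**
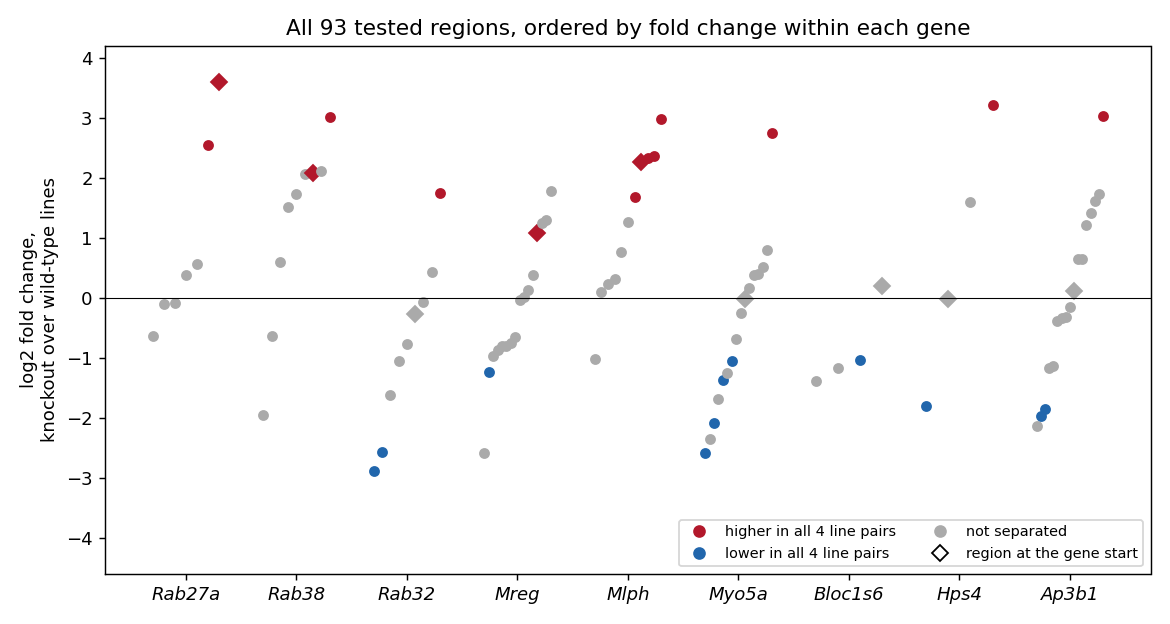
Log2 fold change (knockout over wild-type lines, y axis) of all 93 tested regions, grouped by gene on the x axis and ordered within it. Red points are the 14 regions higher in all 4 line pairs, blue points the 11 lower ones, grey points the rest, and diamonds mark the region at the gene start. Rab27a, Rab38 and Mlph have no blue point.

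For each gene, the start region was the one with most counts, over all libraries, within 1 kb of an annotated start. For Rab38 and Bloc1s6, whose start was not given, it was the one with most counts within 1 kb of either gene end. The start regions of Rab27a, Rab38, Mreg and Mlph were separated and higher in the knockout lines, and 0 of 9 were lower. Among 13220 tested start regions of all protein-coding genes, 2.38% were separated and higher and 3.15% separated and lower. The Rab27a region was chosen through its counts in the knockout libraries. When the start region was instead the one with most counts in the wild-type libraries alone, a choice added after seeing the data, the same region was taken for 8 of the 9 genes and a region at the outer start for Rab27a. Then 3 of 9 were separated and higher (Rab38, Mreg and Mlph; background 2.2%) and 0 lower (background 3.27%). At the starts of Myo5a, Rab32, Bloc1s6, Hps4 and Ap3b1 the ranges of the 2 genotypes overlapped. In each of these the mean of line 112 was below that of line 113 and the mean of line 119 below that of line 73, and lines 112 and 119 also had the smaller share of counts in strong regions and the lower p numbers (18 and 14, against 44 and 68), whose part in this was not tested. Per kb of region length, averaged over the 4 lines, Myo5a had the most accessible start (47.6 CPM per kb) and Rab27a the least (12.3 CPM per kb). Myo5a ranked first in every line. Rab38 ranked second of the 9 in both knockout lines, in the middle of the order in line 119 and last in line 73.

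**Figure D2:**
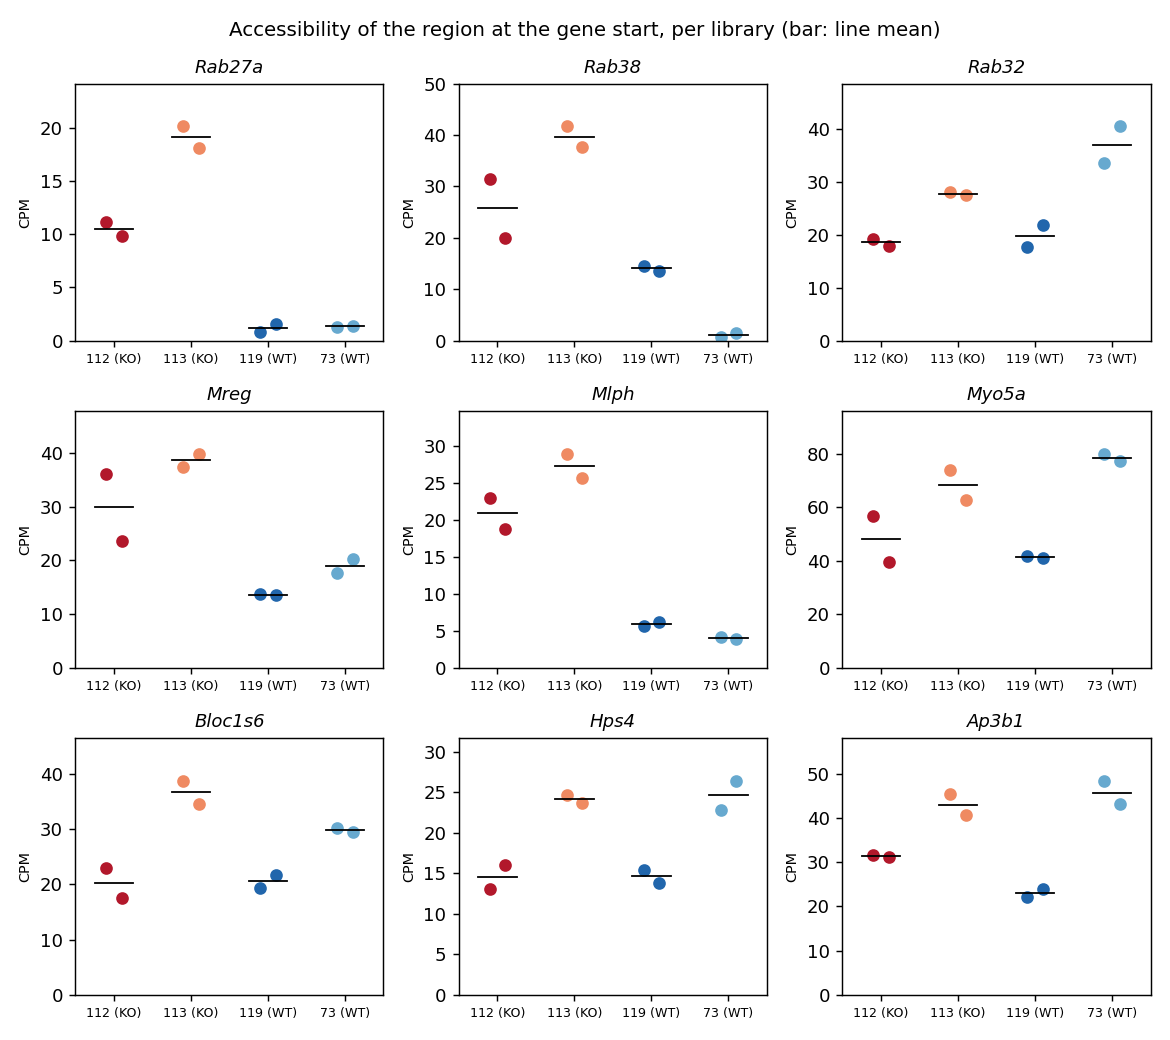
CPM of the start region of each gene (the inner start for Rab27a) (y axes, starting at 0) in the 8 libraries, by line (x axis). Points are libraries and bars are line means. Knockout and wild-type libraries do not overlap for Rab27a, Rab38, Mreg and Mlph and overlap for the other 5 genes. The share of all start regions without such overlap is not given here.

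Rab27a, the GTPase that recruits melanophilin and myosin Va to the melanosome, was accessible at its inner start in the knockout lines and close to closed there in the wild-type lines. The region (chr9:73063580-73064235, inside the gene, centre at −241 bp from the inner start) had 11.2 and 9.85 CPM in line 112, 20.2 and 18.1 CPM in line 113, 0.775 and 1.52 CPM in line 119, and 1.28 and 1.39 CPM in line 73. Every knockout library exceeded every wild-type library, and peaks were called in the 4 knockout libraries and in 0 of the 4 wild-type libraries. The means were 14.8 ± 6.11 CPM for the knockout and 1.24 ± 0.132 CPM for the wild-type genotype (n = 2 lines each), with a log2 fold change of 3.60 (SE 0.92, adjusted p 0.143), the largest of the 93 regions. The wild-type values rested on 5 to 9 counts per library. The peak summits lay at −318 and −188 bp from the inner start in line 112 and at −216 and −169 bp in line 113. The CACGTG printed above lay at −246 to −241 bp, and only the summit of line 112 replicate 1 was upstream of it.

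A second region, 3034 bp downstream of the inner start, followed the same order. It had 11.2 and 7.39 CPM in line 112, 16.8 and 16.2 CPM in line 113, 2.46 and 2.87 CPM in line 119, and 2.30 and 1.11 CPM in line 73, without overlap between the genotypes and with a log2 fold change of 2.54 (SE 0.88, adjusted p 0.181). The outer start did not. Its region (chr9:73044667-73045384) had 1.40 and 5.54 CPM in line 112, 5.89 and 6.29 CPM in line 113, 3.36 and 2.87 CPM in line 119, and 3.84 and 4.17 CPM in line 73, so line 112 spanned the wild-type values, and the log2 fold change was 0.37 (SE 0.84, adjusted p 0.899). The ratio of the inner to this outer region was 1.78 to 8 in knockout libraries and 0.231 to 0.529 in wild-type libraries. The ratio of 8, in line 112 replicate 1, rested on 6 counts in the outer region. The region chosen by wild-type counts was another, with its centre 538 bp upstream of the outer start. It had 6.52 to 8.47 CPM in knockout and 4.39 to 12.2 CPM in wild-type libraries (log2 fold change −0.11 (SE 0.84, adjusted p 0.977)). The other 5 regions of the gene, with both regions at the outer start among them, were not separated.

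Mlph, the adaptor between Rab27a and myosin Va, had more separated regions that were higher in the knockout lines than any other of the 9 genes: 5 of 11, with 0 lower. Its start region (chr1:90914736-90915479) had 23.0 and 18.8 CPM in line 112, 29.0 and 25.6 CPM in line 113, 5.69 and 6.25 CPM in line 119, and 4.10 and 3.89 CPM in line 73. The lowest knockout library was above the highest wild-type library, and the means were 24.1 ± 4.53 CPM for the knockout and 4.98 ± 1.40 CPM for the wild-type genotype (n = 2 lines each), a log2 fold change of 2.27 (SE 0.78, adjusted p 0.180). Peaks were called there in the knockout libraries and in line 119, and in 0 of 2 libraries of line 73. This call held in each of the 14 other settings in which the region was tested.

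The other 4 separated Mlph regions were on both sides of the start. The one at −14527 bp had 13.96 and 8.62 CPM in line 112, 11.1 and 6.05 CPM in line 113, 2.46 and 2.53 CPM in line 119, and 1.02 and 1.67 CPM in line 73 (log2 fold change 2.37 (SE 0.89, adjusted p 0.203)). The one at 2650 bp had 13.5 and 9.23 CPM in line 112, 13.1 and 17.9 CPM in line 113, 3.10 and 4.90 CPM in line 119, and 1.54 and 1.11 CPM in line 73 (log2 fold change 2.33 (SE 0.89, adjusted p 0.211)). In both, line 73 was lowest and all wild-type libraries were below all knockout libraries. At 3298 bp downstream, line 119 (7.63 and 9.79 CPM) was closer to the knockout lines (12.9 to 19.1 CPM) than to line 73 (1.28 and 1.11 CPM), and the call was lost in 7 of 13 other settings, among them without either library of line 119 or of line 73. At 11063 bp downstream the log2 fold change was 2.99, with 1 to 4 counts per wild-type library. The strongest Mlph region on average, at −5323 bp, went with neither genotype: it had 22.1 and 20.9 CPM in line 112, 8.38 and 9.43 CPM in line 113, 12.02 and 11.3 CPM in line 119, and 16.1 and 17.2 CPM in line 73 (log2 fold change 0.10), highest in line 112 and lowest in line 113.

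Myo5a, the actin motor of the complex, had a start region with peaks in all 8 libraries and more lower than higher regions in its body. The start region (chr9:75070901-75072143) had 56.8 and 39.4 CPM in line 112, 74.1 and 62.9 CPM in line 113, 41.7 and 41.2 CPM in line 119, and 80.1 and 77.2 CPM in line 73. The genotypes overlapped fully and the log2 fold change was −0.03 (SE 0.57, adjusted p 0.992). Of 16 regions, all inside the gene, 4 were separated and lower in the knockout lines, at 14193, 23766, 37134 and 123070 bp from the start (log2 fold changes −1.05, −2.59, −2.09 and −1.37), and 1 was higher, at 131765 bp (2.75). The region at 23766 bp had 1.16 and 1.23 CPM in line 112, 0.680 and 0.242 CPM in line 113, 4.52 and 3.71 CPM in line 119, and 5.12 and 6.67 CPM in line 73, and its peaks were called in the 4 wild-type libraries only. The region at 14193 bp, the strongest of the lower ones, had 12.1 and 4.92 CPM in line 112, 8.61 and 10.2 CPM in line 113, 19.8 and 19.2 CPM in line 119, and 18.4 and 17.8 CPM in line 73, with the wild-type libraries close together and line 112 replicate 2 lowest. Without that library the call was lost, and it was also lost when only regions with a mean of at least 50 counts were tested. The calls at 37134 bp (without line 112 replicate 1 or line 119 replicate 1), at 123070 bp (without 4 of the 8 libraries in turn) and at 131765 bp (without line 112 replicate 1, line 113 replicate 1 or line 73 replicate 2) also rested on single libraries. The call at 123070 bp was lost with total counts as well.

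Other Myo5a regions set 1 line apart. The region 6316 bp from the start had 18.4 and 10.8 CPM in line 112, 14.3 and 21.5 CPM in line 113, 20.03 and 22.1 CPM in line 119, and 1.54 and 1.11 CPM in line 73, so it was nearly closed in line 73 and open in the other 3 lines. The regions at 82504 and 127475 bp were highest in line 119, at 10.2 and 12.3 CPM and at 6.33 and 6.42 CPM. The next highest libraries, both of line 112, had 3.96 and 1.16 CPM there, and at 82504 bp a peak was called in 1 library of line 112 as well as in both of line 119.

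Mreg, encoding melanoregulin, was also higher at its start in the knockout lines. The start region (chr1:72211792-72213041) had 36.1 and 23.7 CPM in line 112, 37.4 and 39.9 CPM in line 113, 13.7 and 13.5 CPM in line 119, and 17.7 and 20.3 CPM in line 73. The genotypes did not overlap, peaks were called in all 8 libraries, and the means were 34.3 ± 6.19 CPM for the knockout and 16.3 ± 3.80 CPM for the wild-type genotype (n = 2 lines each), a log2 fold change of 1.09 (SE 0.64, adjusted p 0.405). The call was lost without line 112 replicate 1 and without line 73 replicate 1. The only lower separated region, 29014 bp downstream, had 3.03 and 7.69 CPM in line 112, 5.66 and 7.50 CPM in line 113, 12.5 and 11.6 CPM in line 119, and 16.6 and 13.3 CPM in line 73 (log2 fold change −1.24 (SE 0.81, adjusted p 0.462)), and its call was lost without line 112 replicate 1, line 113 replicate 1 or line 119 replicate 1. The strongest region of the gene, at −13946 bp from the start, had 38.6 and 27.7 CPM in line 112, 44.4 and 38.7 CPM in line 113, 22.7 and 21.6 CPM in line 119, and 55.6 and 55.3 CPM in line 73. It was highest in line 73 and lowest in line 119, with the knockout lines between them (log2 fold change −0.04).

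Rab38, which directs pigment enzymes to melanosomes together with Rab32, showed a graded pattern over the lines. The region at its gene end (chr7:88430015-88430753) had 31.4 and 20.01 CPM in line 112, 41.7 and 37.7 CPM in line 113, 14.6 and 13.5 CPM in line 119, and 0.768 and 1.39 CPM in line 73. Line 119 lay between the knockout lines and line 73, in which 3 and 5 counts remained, and all knockout libraries were above all wild-type libraries. The means were 32.7 ± 9.90 CPM for the knockout and 7.57 ± 9.18 CPM for the wild-type genotype (n = 2 lines each), with a log2 fold change of 2.07 (SE 0.91, adjusted p 0.264). Between the wild-type lines the log2 difference, line 119 minus line 73, was 3.69 (SE 0.40, adjusted p 2.20e-11, edgeR). The smallest difference between a knockout and a wild-type line, line 112 minus line 119, was 0.89. The separated call was lost without line 112 replicate 1. A region 13993 bp inside the gene had 19.8 and 10.5 CPM in line 112, 38.1 and 30.7 CPM in line 113, 5.69 and 3.88 CPM in line 119, and 0.256 and 1.94 CPM in line 73, in the same order of lines, with a log2 fold change of 3.02 (SE 0.91, adjusted p 0.154). The other 7 tested Rab38 regions were not separated. Among them, the region 14488 bp outside the gene was lower in all knockout libraries (0.484 to 1.85 CPM) than in all wild-type libraries (2.58 to 5.38 CPM). Its log2 fold change was −1.95 (SE 0.89, adjusted p 0.277), and with RLE size factors it was separated and lower. The region 9610 bp inside the gene (1.63 to 5.32 and 0.768 to 0.905 CPM) was separated and higher with total counts. The median over the 537 regions within 5 Mb of Rab38, on the log2 scale against the mean of the 4 lines, was 0.24 for line 119 and −0.29 for line 73. In both knockout lines it was near 0 (0.04 and 0.06). The separated calls at the Rab38 gene end and 13993 bp inside the gene held after these regional levels were removed.

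Rab32, the close relative of Rab38, did not share its pattern. Its start region (chr10:10557859-10558502) had 19.3 and 17.9 CPM in line 112, 28.1 and 27.6 CPM in line 113, 17.7 and 21.9 CPM in line 119, and 33.5 and 40.6 CPM in line 73, with overlap between the genotypes and a log2 fold change of −0.28 (SE 0.65, adjusted p 0.904). Inside the gene, the region 2624 bp from the start had 0.931 and 1.85 CPM in line 112, 2.49 and 3.39 CPM in line 113, 12.3 and 11.1 CPM in line 119, and 18.7 and 21.1 CPM in line 73. It was low in all knockout libraries and had peaks in the 4 wild-type libraries only (log2 fold change −2.88 (SE 0.90, adjusted p 0.157), the most negative of the 93). The region 11390 bp from the start had 1.16 and 1.54 CPM in line 112, 1.36 and 0.968 CPM in line 113, 4.91 and 7.09 CPM in line 119, and 7.43 and 10.8 CPM in line 73, again with peaks in the 4 wild-type libraries only (log2 fold change −2.57 (SE 0.90, adjusted p 0.183)). Both calls held in the 13 other settings in which they were tested. A weak region 49752 bp outside the gene, the member region nearest to the 50 kb limit, was separated and higher (log2 fold change 1.74, 2.09 to 3.87 CPM in knockout and 0.556 to 1.29 CPM in wild-type libraries). Its call was lost without any one of 3 libraries (line 112 replicate 2, line 119 replicate 2, line 73 replicate 2). The nearest region outside the limit, 51898 bp from Mreg, had 1.16 to 4.08 CPM in knockout and 0.512 to 2.33 CPM in wild-type libraries.

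**Figure D3:**
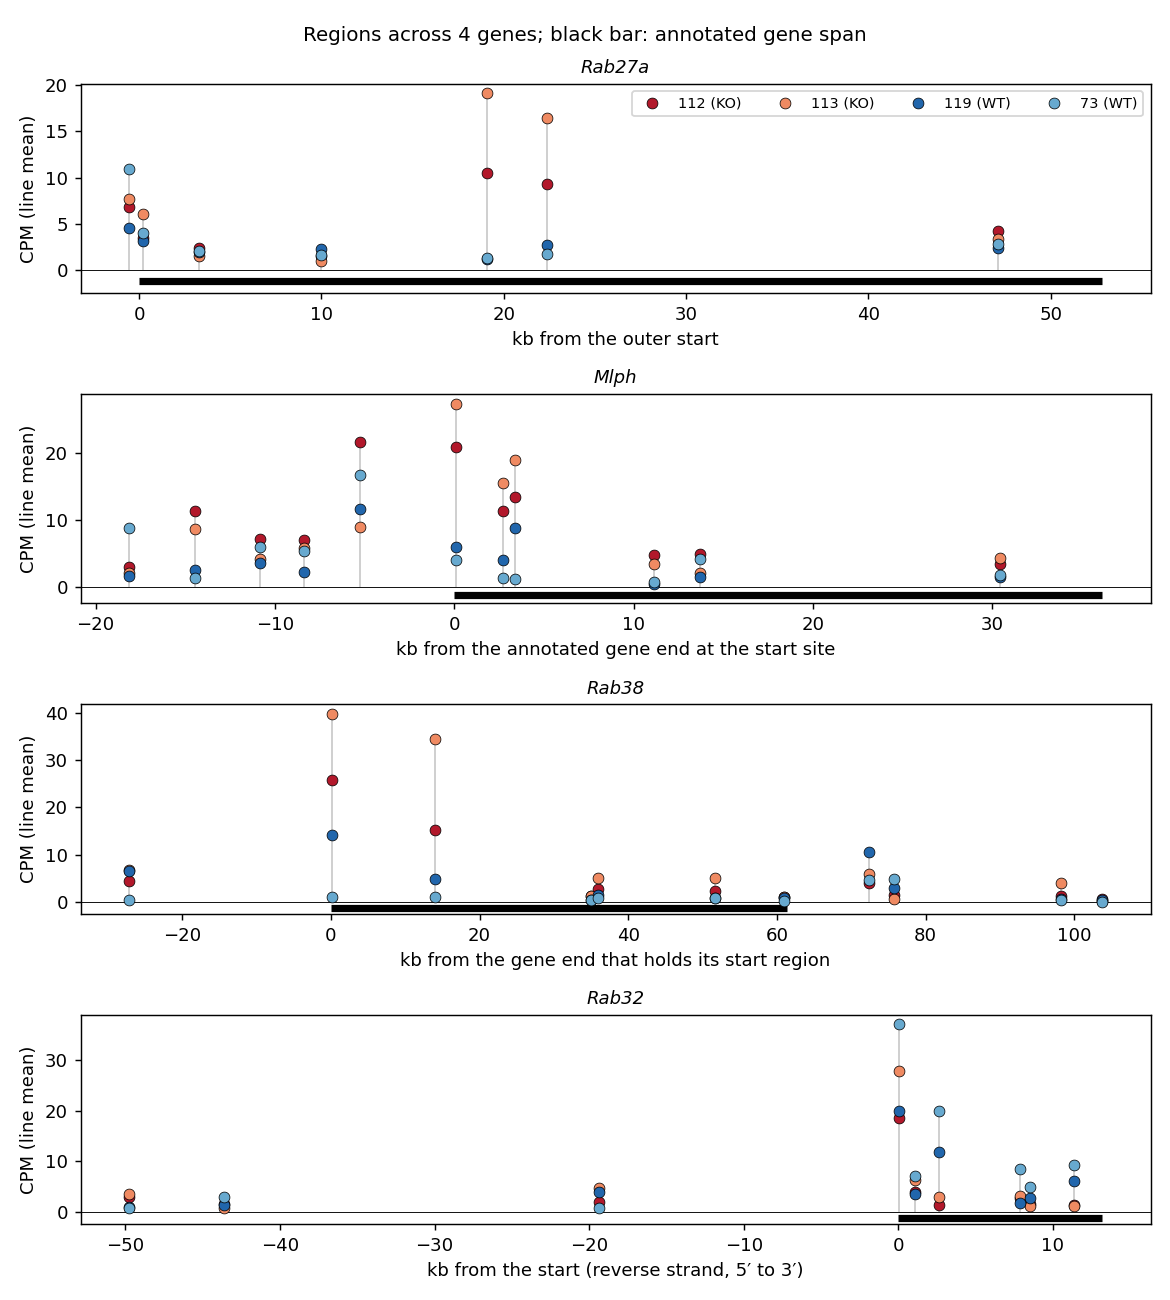
Line mean CPM (y axes) of every region of Rab27a, Mlph, Rab38 and Rab32 against its distance in kb from the gene start or gene end (x axes), with the annotated gene span as a black bar. Red and orange points are the knockout lines, blue points the wild-type lines. The knockout points stand above the wild-type points at the inner start of Rab27a and at the starts of Mlph and Rab38, and below them at the region 2624 bp into Rab32.

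The start regions of the 3 sorting complex genes overlapped between the genotypes. The start region of Bloc1s6, the BLOC-1 subunit pallidin (chr2:122738031-122738922), had 23.0 and 17.5 CPM in line 112, 38.7 and 34.6 CPM in line 113, 19.3 and 21.8 CPM in line 119, and 30.2 and 29.4 CPM in line 73 (log2 fold change 0.19 (SE 0.64, adjusted p 0.940)). That of Hps4, the BLOC-3 subunit (chr5:112342828-112343678), had 13.03 and 16.01 CPM in line 112, 24.7 and 23.7 CPM in line 113, 15.4 and 13.8 CPM in line 119, and 22.8 and 26.4 CPM in line 73 (log2 fold change −0.03 (SE 0.70, adjusted p 0.994)), and that of Ap3b1, the AP-3 beta subunit (chr13:94358266-94359417), had 31.7 and 31.1 CPM in line 112, 45.3 and 40.6 CPM in line 113, 22.1 and 24.0 CPM in line 119, and 48.4 and 43.1 CPM in line 73 (log2 fold change 0.12 (SE 0.61, adjusted p 0.965)). In all 3, lines 113 and 73 were above lines 112 and 119. Peaks were called at the Bloc1s6 and Ap3b1 starts in all 8 libraries and at the Hps4 start in 6, with 0 of 2 in line 112. An intragenic Hps4 region 1389 bp from the start (chr5:112344086-112344883) was separated and higher, with 11.4 and 9.23 CPM in line 112, 31.7 and 23.5 CPM in line 113, 2.58 and 3.04 CPM in line 119, and 1.02 and 1.39 CPM in line 73 (log2 fold change 3.22 (SE 0.93, adjusted p 0.146)), line 113 being highest and line 73 lowest. An end of the neighbouring gene Srrd lies 1444 bp from it and 213 bp from the start region, and both regions count toward Srrd as well. The Hps4 region at −1532 bp from the start lies inside Srrd and also counts toward it. Another Hps4 region, 25015 bp from the start, was separated and lower, with 3.26 and 5.23 CPM in line 112, 8.38 and 7.02 CPM in line 113, 24.8 and 23.5 CPM in line 119, and 16.9 and 16.9 CPM in line 73 (log2 fold change −1.81 (SE 0.80, adjusted p 0.263)).

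Bloc1s6 had 1 separated region among 4, lower in the knockout lines and 7009 bp outside the gene. It had 5.23 to 10.2 CPM in the knockout libraries and 13.8 to 16.4 CPM in the wild-type libraries, without overlap (log2 fold change −1.04 (SE 0.79, adjusted p 0.539)), and the call was lost without line 112 replicate 2, line 119 replicate 2 or line 73 replicate 1. That call was also lost when only regions with a mean of at least 50 counts were tested. Ap3b1 had 3 separated regions among 17 tested. The one 191485 bp from the start was higher and had 7.45 and 4.62 CPM in line 112, 14.5 and 14.5 CPM in line 113, 0.517 and 1.52 CPM in line 119, and 2.05 and 1.11 CPM in line 73 (log2 fold change 3.03 (SE 0.94, adjusted p 0.156)), a call that held in the 13 other settings in which it was tested. Those at 9102 and 109732 bp were lower, with log2 fold changes of −1.97 and −1.85 and 0.308 to 2.04 CPM in knockout against 2.97 to 6.91 CPM in wild-type libraries. They rested on 1 to 9 counts per knockout library, and their calls were lost in 3 and 5 of 13 other settings.

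**Figure D4:**
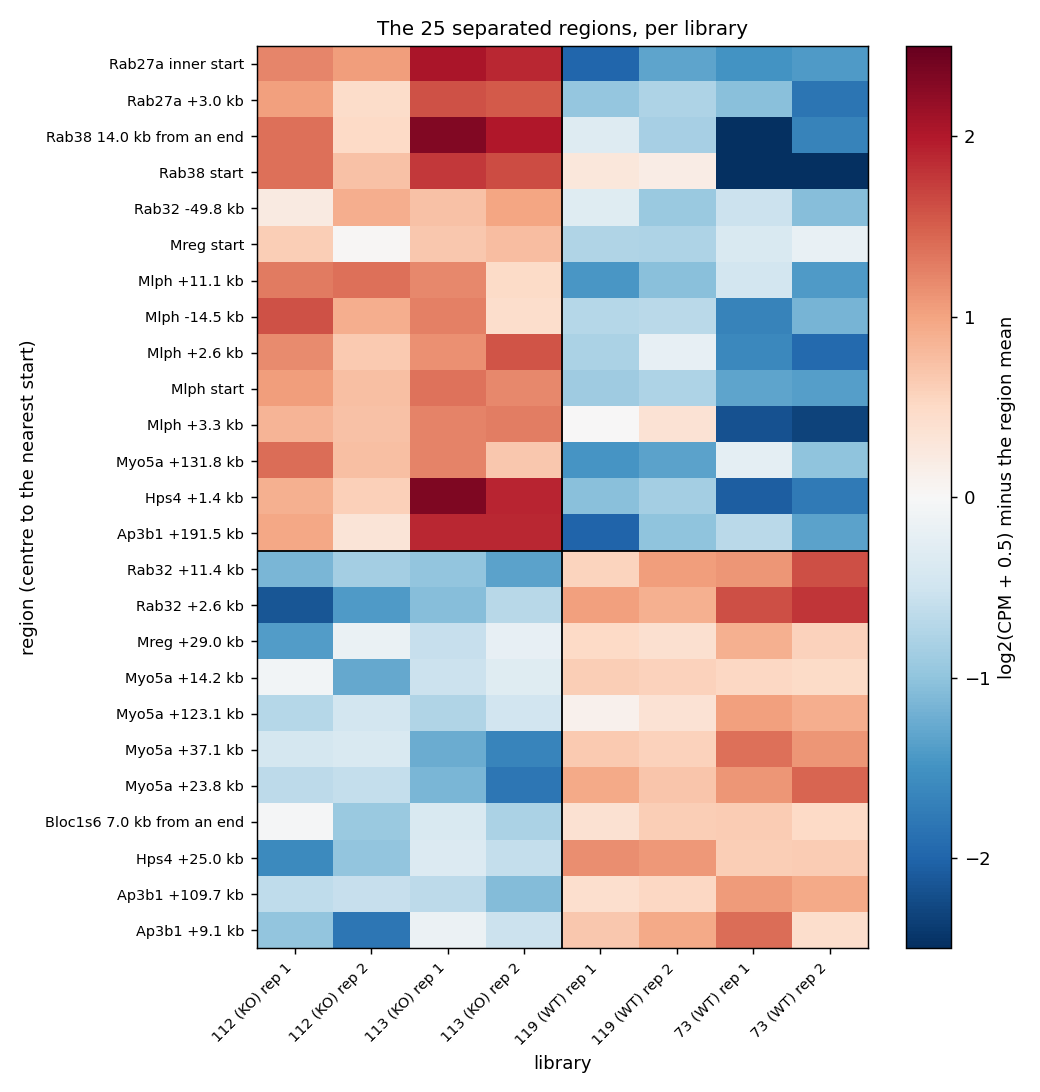
The 25 separated regions (rows, named by gene and distance in kb from the start) in the 8 libraries (columns). Colour is log2(CPM + 0.5) minus the mean of the region over the libraries, red for high and blue for low. The 14 regions above the horizontal line are higher in the knockout lines, left of the vertical line, and the 11 below it are lower. In line 119 the start of Rab38 is near its mean over the libraries, whereas line 73 is far below it.

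Counts were also summed over all regions of each gene, under the same assignment, for all 17774 protein-coding genes with enough counts. Of the 9 sums, 3 were separated and higher in the knockout lines (Rab27a, Rab38 and Mlph; 4.52% of all genes) and 0 were lower (6.79% of all genes). With lines as units, 0 of 9 passed an adjusted p of 0.05 in the edgeR test, against 1.62% of all genes, and 0 of 9 passed in the DESeq2 Wald test, against 2.11%. At an unadjusted p under 0.05, 3 of the 9 sums were higher (background 3.56%) and 0 lower (background 6.45%). With libraries as units 3 of 9 passed (background 11.3%), and 3 with the replicate block (background 8.13%). The Rab27a sum was 38.2 and 38.2 CPM in line 112, 55.5 and 54.9 CPM in line 113, 18.6 and 17.4 CPM in line 119, and 23.6 and 25.3 CPM in line 73 (log2 fold change 1.13 (SE 0.56, adjusted p 0.464)). The Mlph sum was 112 and 106 CPM in line 112, 104 and 97.2 CPM in line 113, 40.6 and 46.3 CPM in line 119, and 54.3 and 47.8 CPM in line 73 (log2 fold change 1.15 (SE 0.49, adjusted p 0.291)). In both genes every knockout library was above every wild-type library. The Mlph sums of the 2 knockout lines were close to each other (log2 difference 0.11, adjusted p 0.508, edgeR), and line 113 exceeded line 112 at Rab27a (log2 difference of line 112 minus line 113 −0.53, adjusted p 0.00322).

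The Rab38 sum was 69.8 and 50.2 CPM in line 112, 111 and 97.2 CPM in line 113, 45.2 and 42.2 CPM in line 119, and 13.1 and 17.2 CPM in line 73 (log2 fold change 1.46 (SE 0.52, adjusted p 0.141)). It fell from line 113 over line 112 and line 119 to line 73, and line 112 was above line 119 by only 0.47 on the log2 scale (adjusted p 0.00810, edgeR). The Rab38 sum passed the genotype test when only regions within 10 kb were summed (log2 fold change 2.28, adjusted p 0.0113, edgeR) and without line 112 replicate 2 (adjusted p 0.0394). The Rab32 sum went the other way without being separated, at 32.4 and 39.4 CPM in line 112, 51.0 and 51.5 CPM in line 113, 51.2 and 52.0 CPM in line 119, and 83.5 and 98.6 CPM in line 73 (log2 fold change −0.72 (SE 0.51, adjusted p 0.850)), with lines 113 and 119 at nearly the same level. The sums of Mreg, Myo5a, Bloc1s6, Hps4 and Ap3b1 had log2 fold changes from −0.28 to 0.29 and overlapped between the genotypes. Hps4 set the knockout lines furthest apart among these genes, with 34.9 CPM in line 112, 78.9 CPM in line 113 and 45.8 to 46.6 CPM in the wild-type lines. Its regions at and near the start also count toward Srrd. Bloc1s6 and Ap3b1 differed between the knockout lines too, with log2 differences of line 112 minus line 113 of −0.54 and −0.43 (adjusted p 0.00503 and 0.00897, edgeR). Mreg and Ap3b1 set the wild-type lines apart, with log2 differences of line 119 minus line 73 of −0.85 and −0.71.

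**Figure D5:**
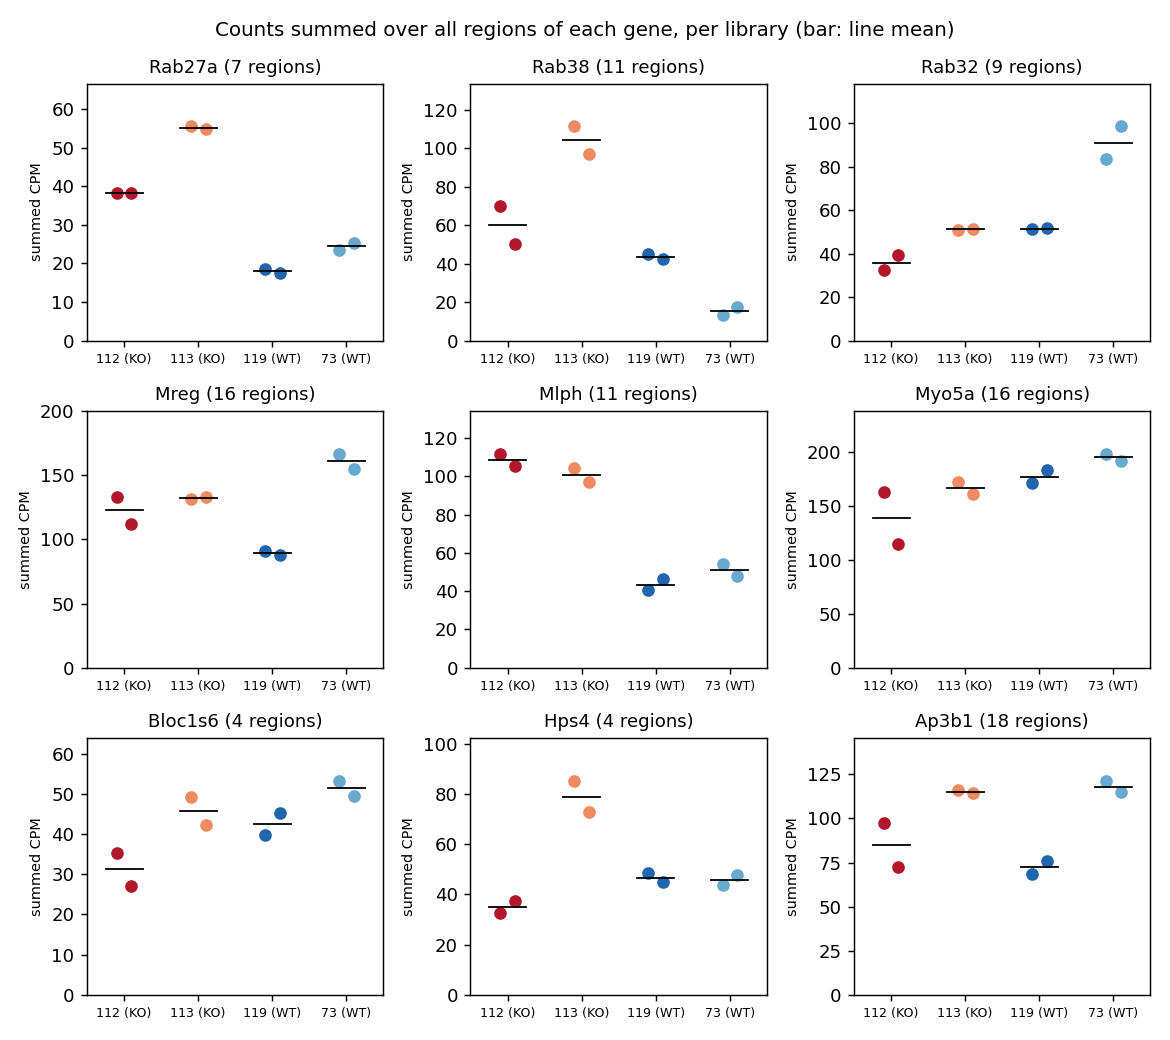
CPM summed over all regions of each gene (y axes, starting at 0) in the 8 libraries by line (x axis). Points are libraries and bars are line means. The knockout libraries stand above the wild-type libraries for Rab27a, Rab38 and Mlph, and the lowest Mreg value among the knockout libraries is line 112 replicate 2. The share of all gene sums without overlap is not given here.

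Lines of one genotype also differed from each other at these genes. Between lines 119 and 73, 46 of 93 regions passed (49.5%, background 56.9%), 16 of them higher in line 119 (background 27.5%) and 30 lower (29.4%). Between lines 112 and 113, 19 passed (20.4%, background 23.8%), 4 of them higher in line 112 (8.24%) and 15 lower (15.6%). Across genotypes, 46 regions passed between lines 112 and 119 (49.5%, background 45.8%), with 29 higher in line 112 (22.2%) and 17 lower (23.5%). Between lines 113 and 119, 57 passed (61.3%, background 58.9%), with 36 higher in line 113 (30.2%) and 21 lower (28.8%). Against line 73 the directions were more even. Between lines 112 and 73, 51 passed (54.8%, background 49.9%), with 22 higher in line 112 (23.8%) and 29 lower (26.1%), and between lines 113 and 73, 56 passed (60.2%, background 52.2%), with 26 higher in line 113 (25.8%) and 30 lower (26.5%). These pairs share lines and are given side by side.

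The other genes of the pathway were taken from a list of 42: the remaining BLOC-1, BLOC-2, BLOC-3 and AP-3 subunits, AP-1 and its kinesin, partners of Rab32, Rab38 and Rab27a, and further transport genes. Of 219 tested regions of 41 of these genes (Vamp7 had none), 12 were separated and higher (5.48%, background 7.64%) and 19 lower (8.68%, background 7.41%). Of their 37 tested start regions, 0 were higher (background 2.38%) and 1 was lower (background 3.15%). That start was Hps1, the partner of Hps4 in BLOC-3. It had 17.9 and 11.1 CPM in line 112, 13.8 and 12.8 CPM in line 113, 22.9 and 23.1 CPM in line 119, and 46.9 and 43.3 CPM in line 73 (log2 fold change −1.27, SE 0.67, adjusted p 0.345, edgeR). All knockout libraries were below all wild-type libraries, whereas the Hps4 start overlapped. Of 41 gene sums, 0 were separated and higher (background 4.52%) and 4 lower (background 6.79%). The 4 were Hps1 (log2 fold change −1.51), Exph5, a Rab27a effector (−1.55), Stx3, a SNARE of melanosome cargo delivery (−0.67), and Lyst, which regulates the size of lysosome-related organelles (−0.60). In the edgeR test with lines as units 0 of the 41 passed an adjusted p of 0.05. By group, BLOC-1 had 1 higher and 3 lower of 31 tested regions, BLOC-2 1 and 2 of 13, and BLOC-3 (Hps1) 0 and 2 of 3. AP-3 had 0 and 1 of 22, AP-1 and kinesin 5 and 2 of 37, and the Rab32 and Rab38 partners 0 and 1 of 23. The Rab27a partners with the prenylation genes had 3 and 3 of 40, and the other transport genes 2 and 5 of 50.

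The genes most like each member were found by Pearson's r of summed log2 CPM over the 8 libraries, among genes with at least 5 regions. The 8 libraries are pairs from 4 lines and share depth differences, so these values are descriptions. Cyp4b1 (r = 0.9898) and Cnpy1 (0.988) were nearest to Rab27a, Adcy2 (0.9887) and Lmx1b (0.9872) to Mlph, and Mob3b (0.9977) and Itga4 (0.995) to Rab38. Sdc4 (0.991) and Gipc2 (0.9792) were nearest to Myo5a, Lcmt1 (0.9906) and Dock8 (0.9879) to Rab32, and Dyrk3 (0.9896) and Ccnyl1 (0.9882) to Mreg. Ptk2 (0.984) and Ankle2 (0.9819) were nearest to Bloc1s6, Rab22a (0.9734) and Bcor (0.9728) to Hps4, and Ubtd1 (0.9914) and Znrf1 (0.9887) to Ap3b1. Among the members themselves, the highest values were 0.93 for Bloc1s6 with Myo5a, 0.91 for Mlph with Rab27a and 0.90 for Ap3b1 with Mreg.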

How the data were processed

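The deposited count table holds the authors' raw counts per region, 148664 regions by 8 ATAC-seq libraries, with 0 columns of other samples. How its regions were built, whether duplicates were removed and whether positions were shifted for Tn5 is not given in the sources used here. The submitters' processing notes name Bowtie2 2.2.4, Picard 1.118, MACS2 2.1.1.20160309 and the builds mm10 and GRCm38, without roles. The deposited peak lists, called per library, give each peak a score, a fold over background (a ratio) and −log10 of p and q, as the authors' caller wrote them. Peaks were used only for overlap (at least 1 bp) and summit positions, so the score and the −log10 values entered no result.

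The 9 members, the pathway and marker lists and the rules were chosen with earlier results of these data known. Gene positions came from RefSeq for GRCm38.p6. filterByExpr (minimum count 10, minimum total 15) kept 140329 regions. TMM scaling and quasi-likelihood tests used edgeR 4.0.16 (R 4.3.3), robust, two-sided, with Benjamini-Hochberg adjustment over all regions or genes and a threshold of 0.05. Lines were compared in a fit of the 8 libraries and genotypes on counts summed per line. SE is the log2 fold change divided by the square root of F. The tests were tested on simulated data.

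Every member was named, with its start region, its strongest region and its separated regions. Pathway genes were named where the start or the sum was separated, and for likeness the 2 genes with the highest r. Alternatives were RLE size factors, total counts, other filters, a 10 kb window, regions with a peak, a 10 Mb regional offset, a replicate block, libraries as units, DESeq2 1.42.0, each library left out and, added after seeing the data, start regions chosen by wild-type counts. Depth limits precision most in line 112, and whether the counts include PCR copies is not known. Replicates of a line differed by more than counting noise (chi-square per degree of freedom 1.07 to 1.98), and all were kept.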

Additional observations from a re-analysis of the deposited data

Results flagged for a closer look

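The summed Mreg counts of line 112 replicate 2 stood apart from the other knockout libraries. They came to 112 CPM, while the other 3 knockout libraries lay between 132 and 133 CPM, a gap larger than Dixon's 95% limit for 4 values allows. This library also had the fewest counts (2697546) and peaks (20387), and that part of the difference was not tested. In all, 36 sets of 4 values were examined, and about 1 in 20 such sets passes by chance.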

How the results depend on the processing

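Of the 25 separated regions, 12 were separated in every setting in which they were tested and 0 changed direction. Counts of regions moved by more than 1.5 times mainly with the filter. With a mean of at least 50 counts, 18 member regions were tested: 4 were separated and higher and 1 lower, and 11 passed between lines 112 and 119, 9 between 112 and 73, 12 between 113 and 119, 12 between 113 and 73, 1 between 112 and 113 and 12 between 119 and 73. Fewer regions were tested there. Shares over all regions under this filter, or with a library left out, are not given here. These counts therefore cannot be set against a background. When each library was left out in turn, 10 to 14 regions were separated and higher and 7 to 11 lower, the low of 7 coming without line 112 replicate 1 and without either library of line 119. The regions passing then numbered 30 to 44 between lines 112 and 119, 9 to 20 between 112 and 113, and 29 to 50 between 119 and 73, and the gene sums passing 0 to 1. With lines as units 0 regions passed, against 7 with DESeq2, 34 with libraries as units and 25 with libraries as units and the replicate block. Of the gene sums, 3 passed with libraries as units, 3 with the replicate block as well, and 1 with a 10 kb window. Libraries of a line are not independent units of genotype. Replicate numbers are only shared labels: deviations of same-numbered libraries correlated at −0.035 to 0.011, and the replicate block in the fit of the 8 libraries left 14 higher and 11 lower. With start regions chosen by wild-type counts, an alternative added after seeing the data, 3 of the 9 were higher and 0 lower, against 4 and 0. Log2 fold changes close to 0 changed sign. The Mreg sum was −0.0040 with RLE size factors, −0.0040 with DESeq2, −0.14 with the regional offset and −0.057 to 0.089 with a library left out. The Ap3b1 sum was −0.033 to 0.15 with a library left out. The Myo5a start was 0.039 with total counts and −0.17 to 0.050 with a library left out. The Hps4 start was 0.021 with total counts, 0.10 with the regional offset and −0.088 to 0.065 with a library left out. The Rab32 start was 0.0068 and the Bloc1s6 start −0.0010 with the regional offset. The cause was not tested. With 2 lines per genotype, a difference between lines cannot be told apart from an effect of STAT3, and p number and depth vary with the line.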
